A study of Mus musculus with 451 samples.

Results

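The genes of glycolysis, of the pyruvate dehydrogenase step, of the citrate cycle and of the oxidative pentose phosphate branch were examined in 451 single cells of mouse tail tendon. The group was a list of 37 gene names, made up of sugar and lactate transporters, the enzymes of these pathways and a few of their regulators. Of these, 34 had 100 or more reads over all cells and were compared, as were 10963 of the 48795 gene symbols in the table. Pfkl with 93 reads, Ldhb with 65 and Aldoc with 44 did not reach that minimum, and their reads are described apart.

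The cells came from tail tendons of 4-week-old C57BL/6 mice that were either wild type (WT) or Mkx-/-. Mkx (Mohawk homeobox) codes for a transcription factor active in tendon, and mice without it have thin tendons. The tissue was minced, digested with collagenase and strained, single cells were captured on a high-throughput Fluidigm C1 chip, and their cDNA was made into Nextera XT libraries. Each deposited sample was 1 cell, and no label named the animal or the chip, so each genotype was 1 sample (227 WT and 224 Mkx-/- cells). No test between groups was made for that reason. Intervals in parentheses are exact 95% intervals that cover only the counting error of reads taken as independent, and the spread between animals cannot be known from these data. The labels give no promoter, Cre line or further allele for the deletion.

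Cells were also split by state, with the mean of log2(CPM + 1) for Tnmd and Fmod as a score, where CPM is reads per 1000000 reads of the cell. Both genes are markers of mature tendon cells. A score of 10 or more was found in 78 WT and 84 Mkx-/- cells, called Tnmd/Fmod-high cells here, and the other 289 cells (140 of them Mkx-/-) are the remaining cells. Only 9 cells scored within 1 unit of the limit. The highest score under it was 9.99 and the lowest above it 10.3 in WT cells. The remaining cells of the genotypes were not alike in this score, with a median of 5.33 in WT cells and 6.57 in Mkx-/- cells. In high cells the medians were 11.96 and 12.4.

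The high cells carried more of the tenocyte markers, and the remaining cells more of the progenitor and the tenoblast markers. The 8 tenocyte markers (Col1a1, Col1a2, Sparc, Col11a1, Col11a2 and Kera beside Tnmd and Fmod) summed to 311445 CPM in high and 26178 CPM in remaining WT cells, and to 225070 and 32075 CPM in Mkx-/- cells. Tnmd and Fmod set the score and so differ by construction, with 3774 and 4196 CPM of the sum in high WT cells. Col1a1 and Col1a2, which have no part in the score, held most of the sum. They stood at 107594 and 153923 CPM in high and 7033 and 10408 CPM in remaining WT cells. The 8 progenitor markers, Cd44, Thy1 and Ly6a among them, summed to 4969.9 and 22912 CPM in WT cells. The 4 markers of tenoblasts, which are intermediate tendon cells, were Itm2a, Lgals3, Serpine2 and Myoc. They summed to 1204 and 3602.7 CPM in high and remaining WT cells and to 2664.2 and 5097 CPM in Mkx-/- cells. The remaining cells are thus a mixed group. All 5 cartilage markers (Col2a1, Acan, Sox9, Col9a1, Matn3) had reads, and their sum was 574 and 476.04 CPM in high WT and Mkx-/- cells against 48.5 and 42.5 CPM in the remaining cells. Sums over the endothelial (5 genes), mural (5 genes) and Schwann cell markers (4 genes), all with reads, were also larger in high than in remaining WT cells, at 66.8 against 2.56, 94.01 against 10.8 and 157.6 against 31.03 CPM. The endothelial sum came mostly from 1 well, which held all reads of Cdh5, Kdr and Tie1 and all but 1 of those of Emcn in high WT cells, and 1 cell held all Rgs5 reads of that group. The 6 immune markers summed lower in high than in remaining cells, at 80.5 against 143.3 CPM in WT cells and 8.44 against 164.04 CPM in Mkx-/- cells. The part of these genes in the state differences was not tested. In all, 14 wells held 3 or more markers of 1 other cell type (immune cells included, cartilage not). Without them the group's median state ratios given below were -0.36 in WT cells and -0.30 in Mkx-/- cells. Mkx itself stood at 68.1 CPM (61.97 to 74.7) in high WT and 28.9 CPM (25.1 to 33.1) in high Mkx-/- cells, and at 1.57 and 1.45 CPM in remaining cells. Cells labelled Mkx-/- thus still held reads of the gene, and the labels do not say which part of it was deleted.

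The depth of the libraries differed with state. The median was 41921 reads per remaining WT cell, 81693 per high WT cell, 46389 per remaining Mkx-/- cell and 72897 per high Mkx-/- cell. The 50 genes with most reads took 45.2% of the reads of high WT cells against 21.7% in remaining WT cells, and 37.7% against 21.3% in Mkx-/- cells. A gene with an equal share of the other reads therefore stands lower in CPM in high cells. The median log2 ratio of high to remaining cells over all genes was -0.65 in WT cells and -0.45 in Mkx-/- cells, and log2 ratios below are given with their distance from that median where it matters.

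Glycolysis splits glucose into pyruvate in the cytosol. Pyruvate is either reduced to lactate and exported or enters the mitochondrion, where pyruvate dehydrogenase turns it into acetyl-CoA for the citrate cycle. The oxidative pentose phosphate branch draws glucose 6-phosphate away from glycolysis and yields NADPH and ribose precursors. Tendon is a tissue with few vessels, and its mature cells secrete large amounts of collagen.

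Reads of the 37 genes made up 0.333% of all reads in WT cells and 0.356% in Mkx-/- cells. Coverage was thin for many of them. Hk2, Aldoa, Gapdh, Pkm and Ldha were read in most cells of every group, whereas Pfkm, Pdk1, Slc16a3 and Bnip3 were read in under 1 cell of 5 in every group. Values for the thinly read genes rest on few cells, and the number of cells with a read is given beside many of them.

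**Figure D1:**
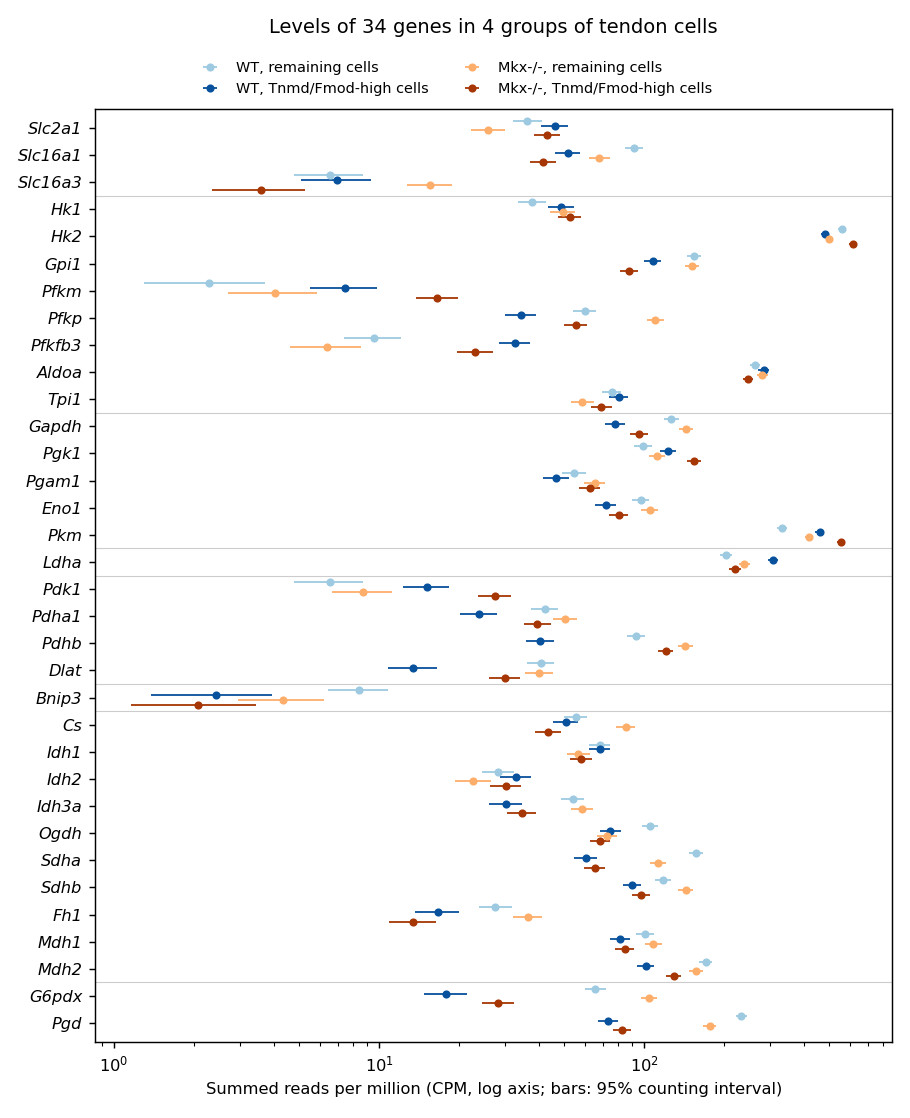
Summed level (CPM, log axis) of the 34 genes with 100 or more reads in the 4 groups of cells, with light points for remaining cells, dark points for Tnmd/Fmod-high cells, blue for WT and orange for Mkx-/-. Bars are exact 95% counting intervals; G6pdx and Pgd lie lower in both high groups, and Pfkm, Pfkfb3 and Pdk1 lie higher in both.

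High and remaining cells were compared first. Among the 34 genes, 4 were 1.5-fold or more higher and 13 were 1.5-fold or more lower in high than in remaining WT cells. Over all genes tested the shares were 12.2% higher and 53.3% lower. In Mkx-/- cells 4 were higher and 12 lower, against 12.5% and 43.2% of all genes. These splits follow the scaling. With the 50 most abundant genes left out of the totals, 12 genes were higher and 6 lower in WT cells and 8 higher and 7 lower in Mkx-/- cells, and with TMM factors 13 and 6 and 9 and 5. The median of all genes moved as well, to -0.13 and -0.12 without the 50 genes and to -0.04 and -0.02 with TMM factors. The shares of all genes above are for CPM and cannot be set beside these counts. The group's median log2 ratio was -0.35 in WT cells and -0.31 in Mkx-/- cells, which is 0.30 and 0.14 above the median of all genes. The sign of the group's median turned too, and without the 50 most abundant genes in the totals it was 0.17 and 0.03. Of the 34 genes, 3 passed 1.5-fold upwards in both genotypes (Pdk1, Pfkfb3 and Pfkm) and 9 downwards in both (Slc16a1, Pfkp, Gapdh, Bnip3, Idh3a, Sdha, Fh1, G6pdx and Pgd). Over all genes, 5.52% passed upwards in both and 29.1% downwards in both. Without the 50 most abundant genes, with TMM factors and with median-of-ratios factors, Bnip3, G6pdx and Pgd were the only genes of the 9 that still passed downwards in both genotypes, and Slc2a1, Pgk1, Pkm and Idh2 passed upwards in both beside Pdk1, Pfkfb3 and Pfkm. The 5.52% and 29.1% of all genes are for CPM and do not apply to these scalings.

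**Figure D2:**
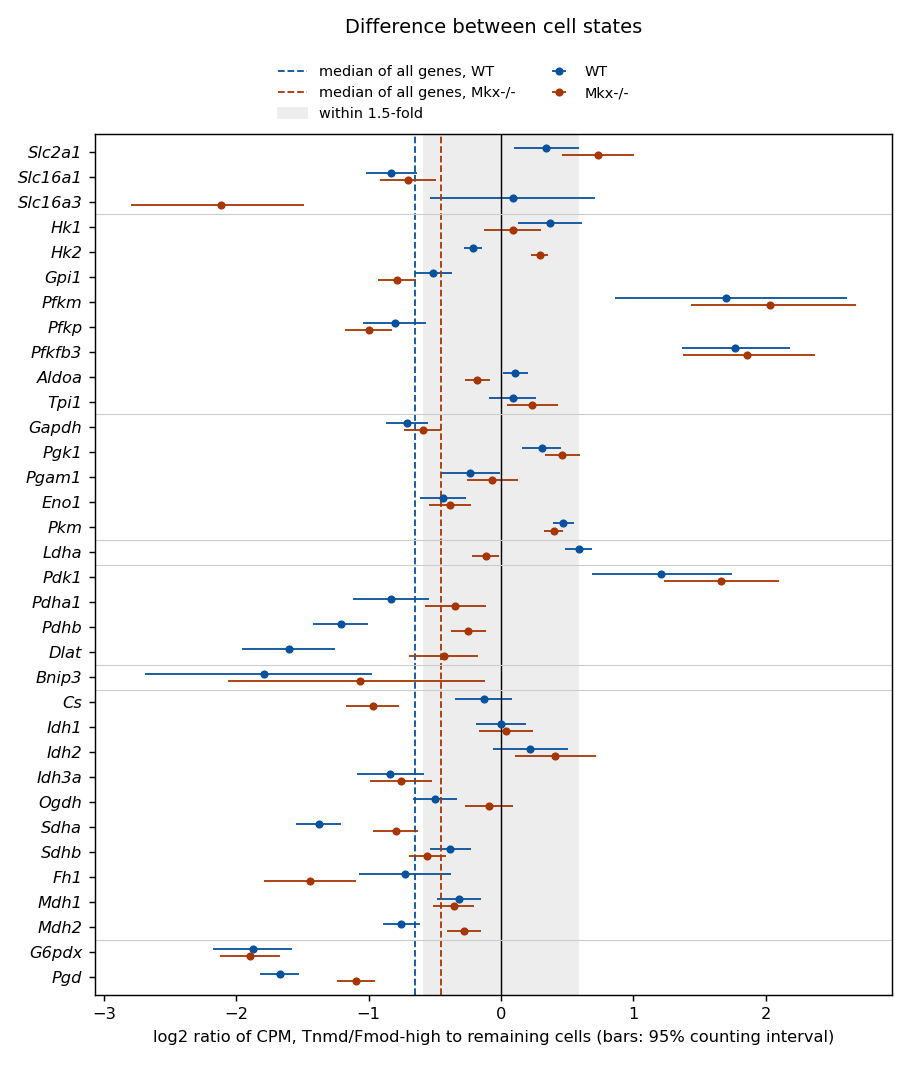
Log2 ratio of CPM in Tnmd/Fmod-high to remaining cells for each gene, in WT (blue) and Mkx-/- cells (orange), with exact 95% counting intervals, the 1.5-fold zone shaded and the median of all genes as a dashed line per genotype. Of the 13 glycolytic genes shown, 11 in WT cells and 10 in Mkx-/- cells lie to the right of the dashed lines, whereas G6pdx and Pgd lie to the left.

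The 3 genes higher in both genotypes encode control points. Pdk1, pyruvate dehydrogenase kinase 1, phosphorylates and inactivates pyruvate dehydrogenase. It is found at chr2:71711281-71741915 (plus strand) in the NCBIM37 build, which is used for all gene positions here. Its summed level was 6.55 CPM (4.79 to 8.73) in the remaining WT cells, 15.1 CPM (12.3 to 18.4) in the Tnmd/Fmod-high WT cells, 8.67 CPM (6.62 to 11.2) in the remaining Mkx-/- cells and 27.4 CPM (23.7 to 31.5) in the Tnmd/Fmod-high Mkx-/- cells. Both high groups stood above both remaining groups, with log2 ratios of 1.21 (0.69 to 1.75) in WT cells and 1.66 (1.24 to 2.10) in Mkx-/- cells. The reads came from 6, 13, 9 and 10 cells in that order of groups, the order used wherever numbers of cells are given, and the median cell had none in any group. With every cell given equal weight the log2 ratios were 0.40 and 0.95, and in cells with under 5000 detected genes the ratio in Mkx-/- cells was 0.27.

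Pfkfb3 encodes a bifunctional enzyme that makes fructose 2,6-bisphosphate, an activator of phosphofructokinase. It is found at chr2:11393057-11423728 (minus strand). It stood at 9.54 CPM (7.39 to 12.1) in remaining and 32.5 CPM (28.3 to 37.2) in high WT cells, and at 6.36 CPM (4.62 to 8.54) and 23.1 CPM (19.7 to 26.9) in Mkx-/- cells. High cells were 3.41-fold higher in WT cells and 3.63-fold higher in Mkx-/- cells. It was read in 8, 19, 10 and 16 cells, with cells of up to 1046 CPM in the remaining Mkx-/- group, where 1 cell held 38.6% of the reads. Equal weight of cells lowered the log2 ratio in Mkx-/- cells from 1.86 to 0.30, and the ratio in WT cells stayed at 1.91.

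Pfkm encodes the muscle-type phosphofructokinase, the enzyme of the committed step of glycolysis. It is found at chr15:97923020-97962878 (plus strand) and overlaps Senp1 on the other strand. Reads in the stretch they share may not be told apart, since the treatment of strand is not given. Its level was 2.28 CPM (1.30 to 3.70) in the remaining WT cells, 7.42 CPM (5.49 to 9.81) in the Tnmd/Fmod-high WT cells, 4.05 CPM (2.69 to 5.85) in the remaining Mkx-/- cells and 16.6 CPM (13.8 to 19.9) in the Tnmd/Fmod-high Mkx-/- cells. The log2 ratios were 1.70 (0.86 to 2.62) in WT cells and 2.04 (1.43 to 2.69) in Mkx-/- cells. Few cells carried it, namely 4, 7, 4 and 14 cells. In the remaining WT cells 1 cell held 68.8% of the reads. Without the leading cell of each group the ratios were 2.99 and 2.37.

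Because Pdk1, Pfkfb3 and Pfkm stood higher together and G6pdx lower, and because Ldha differed in direction between genotypes, the bases upstream of their start sites are shown. The windows are the 250 bases before the first start site that RefSeq lists for each gene (build GRCm38.p6), read 5′ to 3′ on the gene's strand. Capitals mark ACGTG or GCGTG on either strand, the core to which hypoxia-inducible factors bind, and CACGTG, the E-box, holds ACGTG on both strands.
Pdk1, chr2:71872974-71873223 (plus strand): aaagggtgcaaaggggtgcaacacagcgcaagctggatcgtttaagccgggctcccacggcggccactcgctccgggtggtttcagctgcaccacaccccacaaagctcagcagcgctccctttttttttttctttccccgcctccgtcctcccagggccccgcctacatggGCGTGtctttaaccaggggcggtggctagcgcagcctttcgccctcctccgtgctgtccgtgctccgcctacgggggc
Pfkfb3, chr2:11553930-11554179 (minus strand): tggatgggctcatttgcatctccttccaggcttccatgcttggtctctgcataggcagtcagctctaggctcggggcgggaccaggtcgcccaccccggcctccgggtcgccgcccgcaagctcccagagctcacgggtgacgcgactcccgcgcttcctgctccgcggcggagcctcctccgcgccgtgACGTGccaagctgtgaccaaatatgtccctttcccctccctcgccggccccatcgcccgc
Pfkm, chr15:98092339-98092588 (plus strand): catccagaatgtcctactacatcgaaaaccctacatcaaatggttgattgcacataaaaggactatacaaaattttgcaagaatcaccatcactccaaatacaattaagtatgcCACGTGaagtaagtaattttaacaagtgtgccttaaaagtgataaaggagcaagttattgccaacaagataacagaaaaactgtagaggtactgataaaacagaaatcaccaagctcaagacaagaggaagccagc
Ldha, chr7:46845554-46845803 (plus strand): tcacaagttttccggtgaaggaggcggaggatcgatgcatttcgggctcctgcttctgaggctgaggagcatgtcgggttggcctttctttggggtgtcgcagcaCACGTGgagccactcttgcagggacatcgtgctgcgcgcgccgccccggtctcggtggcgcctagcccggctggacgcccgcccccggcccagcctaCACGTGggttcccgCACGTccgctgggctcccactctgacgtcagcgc
G6pdx, chrX:74428881-74429130 (minus strand): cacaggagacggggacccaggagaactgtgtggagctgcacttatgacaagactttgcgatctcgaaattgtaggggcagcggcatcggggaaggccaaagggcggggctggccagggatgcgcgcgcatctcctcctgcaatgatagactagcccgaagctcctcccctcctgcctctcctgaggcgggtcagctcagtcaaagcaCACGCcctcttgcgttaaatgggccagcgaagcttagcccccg

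Each of these 5 windows held at least 1 match, including that of G6pdx, which stood lower in high cells. The Ldha window held 2 copies of CACGTG and 1 more match, and the nearest match ended 29 bases before the start site. The Pfkm window held 1 copy of CACGTG, 130 bases before the start. RefSeq held a window for 36 of the 37 genes. ACGTG was found in 14 of 36 windows of listed genes (38.9%) and 16.6% of all 27025 windows, GCGTG in 58.3% and 28.2%, and either of them in 77.8% and 38.6%. CACGTG was in 11.1% and 6.05%, and TGACNNNGC, the core of the antioxidant response element, in 5.56% and 10.1%. The windows of the listed genes were richer in G and C, with a median of 61.6% against 52%, and the part of base composition in these shares was not tested. A match describes the letters of a window and not a bound site.

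The 3 transporters differed in direction between states. Slc2a1, the glucose transporter GLUT1, stood at 36.3 and 46.02 CPM in remaining and high WT cells and 25.9 and 43.04 CPM in remaining and high Mkx-/- cells. The log2 ratio was 0.34 (0.10 to 0.59) in WT cells and 0.73 (0.46 to 1.01) in Mkx-/- cells, and with a score limit of 11 the ratio in WT cells turned to -0.42, 1 of 5 among 14 alternatives that changed its sign. Slc16a1, the lactate and pyruvate carrier MCT1, was lower in high cells of both genotypes, at 91.7 and 51.6 CPM in remaining and high WT cells and 67.8 and 41.7 CPM in remaining and high Mkx-/- cells. Its ratios of -0.83 and -0.70 lay -0.18 and -0.25 from the median of all genes. Slc16a3, the lactate exporter MCT4, was read in 5, 6, 7 and 7 cells. Its level was 6.55 and 6.96 CPM in remaining and high WT cells and 15.6 and 3.598 CPM in remaining and high Mkx-/- cells. The log2 ratio was 0.09 (-0.53 to 0.71) in WT cells and -2.12 (-2.79 to -1.49) in Mkx-/- cells, and it overlaps Csnk1d on the other strand.

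The steps from hexose to triose phosphate held an enzyme read in most cells at a like level in both states, and isozymes whose mix differed. Hk2, the inducible hexokinase, was read in 87.2% to 97.1% of the cells of a group and stood at 559 CPM (542 to 577) in the remaining WT cells, 482 CPM (465 to 499) in the Tnmd/Fmod-high WT cells, 500.5 CPM (484 to 517) in the remaining Mkx-/- cells and 613 CPM (596 to 632) in the Tnmd/Fmod-high Mkx-/- cells. Single cells ran from 0 to 2583 CPM in the remaining WT group (median 414) and from 0 to 2023 CPM in the high WT group (median 345). In Mkx-/- cells the medians were 398 and 461 CPM. The groups overlapped over nearly their whole range. Hk1, the widespread hexokinase, stood at 37.7 and 48.7 CPM in remaining and high WT cells and 49.3 and 52.4 CPM in remaining and high Mkx-/- cells and was read in a larger share of high than of remaining cells (44.9% against 22.8% in WT), also after thinning each cell to 28000 reads (38.96% against 21.3%). Hk2 held 93.7% (92.9 to 94.4) of hexokinase reads in remaining and 90.8% (89.8 to 91.8) in high WT cells, and 91.04% (90.1 to 91.9) and 92.1% (91.3 to 92.9) in Mkx-/- cells.

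Gpi1, glucose-6-phosphate isomerase, was lower in CPM in high cells, at 154.02 and 108.1 CPM in remaining and high WT cells and 151.5 and 87.9 CPM in remaining and high Mkx-/- cells. The log2 ratio of -0.79 in Mkx-/- cells passed 1.5-fold and that of -0.51 in WT cells did not. From the median of all genes they lay at -0.33 in Mkx-/- and 0.14 in WT cells. Without the 50 most abundant genes in the totals they were -0.45 and 0.004. Aldoa, the main aldolase, stood at 263 and 283 CPM in remaining and high WT cells and 279.7 and 247 CPM in remaining and high Mkx-/- cells and stayed within 1.5-fold in both genotypes. All aldolase reads outside the high Mkx-/- group were of Aldoa, and the 44 reads of Aldoc, the brain aldolase, came from 1 cell. Tpi1, triose phosphate isomerase, stood at 75.4 and 80.2 CPM in remaining and high WT cells and 58.5 and 69.1 CPM in remaining and high Mkx-/- cells, with log2 ratios of 0.09 and 0.24.

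Phosphofructokinase is made from liver, muscle and platelet types of subunit, and the mix of their reads differed between states. Pfkp, the platelet type, is found at chr13:6579014-6648023 (minus strand) and was lower in high cells of both genotypes. Its level was 59.6 CPM (54.1 to 65.6) in the remaining WT cells, 34.2 CPM (29.9 to 38.98) in the Tnmd/Fmod-high WT cells, 110.4 CPM (102.7 to 118.5) in the remaining Mkx-/- cells and 55.2 CPM (49.9 to 60.9) in the Tnmd/Fmod-high Mkx-/- cells. The log2 ratios were -0.80 (-1.04 to -0.57) and -0.9998 (-1.18 to -0.82). Pfkp made up 91.3% (88.3 to 93.7) of phosphofructokinase reads in remaining and 70.8% (65.5 to 75.8) in high WT cells, and 95.6% (93.96 to 96.9) and 74.3% (70.4 to 77.9) in Mkx-/- cells. Pfkm made up 3.49% (2.01 to 5.60) and 15.4% (11.6 to 19.8) in WT cells and 3.504% (2.34 to 5.03) and 22.3% (18.9 to 26.1) in Mkx-/- cells. The platelet type thus held a smaller and the muscle type a larger share in high cells of both genotypes, with intervals that do not overlap between states. Those intervals count reads, and Pfkm was read in only 4, 7, 4 and 14 cells. The shares are of reads, not corrected for transcript length, and are compared only between groups of cells. Pfkl, the liver type with 93 reads, was found in 9, 8, 3 and 3 cells and made up 13.8% (10.2 to 18.1) of the reads in high WT and 3.35% (1.998 to 5.25) in high Mkx-/- cells. Pfkp overlaps Pitrm1 on the other strand, and shares of reads do not depend on how the libraries were scaled.

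**Figure D3:**
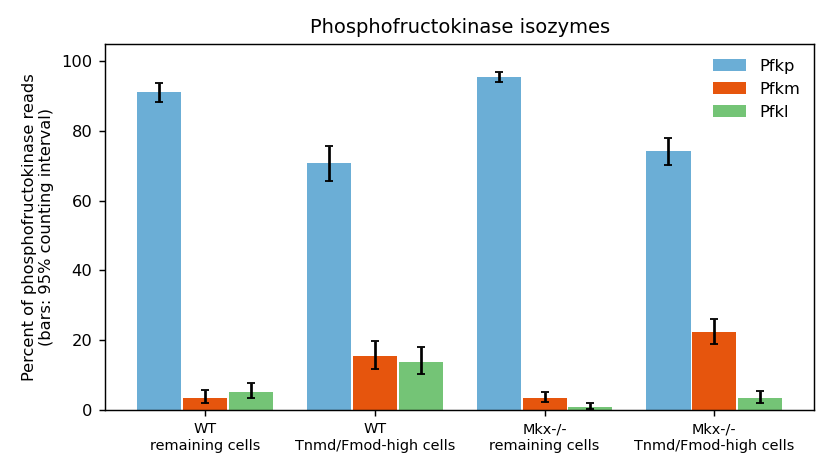
Percent of phosphofructokinase reads that were of Pfkp, Pfkm and Pfkl in the 4 groups of cells, with exact 95% counting intervals. The Pfkm bar is taller in both high groups (15.4% in WT and 22.3% in Mkx-/- cells) than in both remaining groups (3.49% and 3.504%).

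From triose phosphate to pyruvate, 4 of 5 enzymes stayed within 1.5-fold between states in both genotypes. Pkm, pyruvate kinase, is found at chr9:59504383-59527182 (plus strand) and stood at 331 CPM (318 to 345) in the remaining WT cells, 459 CPM (443 to 476.1) in the Tnmd/Fmod-high WT cells, 419 CPM (403 to 434) in the remaining Mkx-/- cells and 551 CPM (534 to 569) in the Tnmd/Fmod-high Mkx-/- cells. Its single cells ran up to 1723 CPM in remaining (median 228) and 1983 CPM in high WT cells (median 396). The medians of Mkx-/- cells were 242 and 529 CPM. High cells thus stood above remaining cells by 0.47 (0.39 to 0.55) in WT cells and 0.40 (0.33 to 0.47) in Mkx-/- cells on the log2 scale. Muscle-type and embryonic pyruvate kinase arise from Pkm by splicing and were not separated.

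Gapdh, the glyceraldehyde phosphate dehydrogenase often used as a reference gene, was lower in high cells. It stood at 126.8 CPM (118.6 to 135.4) in the remaining WT cells, 77.7 CPM (71.1 to 84.7) in the Tnmd/Fmod-high WT cells, 144.4 CPM (135.6 to 153.6) in the remaining Mkx-/- cells and 95.8 CPM (88.8 to 103.2) in the Tnmd/Fmod-high Mkx-/- cells, with log2 ratios of -0.71 and -0.59, or -0.06 and -0.14 from the median of all genes. This count is uncertain, since the genome (NCBIM37) holds 47 near-identical copies of Gapdh, and the 32 of them in the table took 76.7% of the reads of Gapdh and its copies. With the copies added, the ratios were -0.72 and -0.53. Pgk1, phosphoglycerate kinase, and Eno1, enolase, shared reads with copies in the same way, which took 54.3% and 55.7%. Pgk1 was higher in high cells, by 0.31 in WT cells and 0.46 in Mkx-/- cells, and 0.29 and 0.49 with copies added. Eno1 had log2 ratios of -0.44 and -0.39, and Pgam1, phosphoglycerate mutase, of -0.23 and -0.07.

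Ldha, the main subunit of the lactate dehydrogenase that makes lactate, differed with state in WT cells and hardly in Mkx-/- cells. It is found at chr7:54096845-54110997 (plus strand). Its level was 203.6 CPM (193.1 to 214.4) in the remaining WT cells, 306 CPM (292 to 319) in the Tnmd/Fmod-high WT cells, 239 CPM (228 to 251) in the remaining Mkx-/- cells and 220.6 CPM (209.9 to 232) in the Tnmd/Fmod-high Mkx-/- cells, so the high WT cells stood above the other groups. The median cell had 94.5, 254, 96.96 and 188.4 CPM in the same order. The log2 ratio was 0.59 (0.49 to 0.69) in WT, just at 1.5-fold, and -0.12 (-0.22 to -0.01) in Mkx-/- cells. Scalings that lift the median of all genes towards 0 made both positive, at 1.19 and 0.31 with TMM factors. Ldhb, the subunit typical of heart, held 65 reads in 0, 1, 3 and 6 cells, at most 2.33% (1.65 to 3.18) of lactate dehydrogenase reads.

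The 3 genes of the pyruvate dehydrogenase complex itself were lower in CPM in high WT cells, Dlat and Pdhb also relative to the median of all genes. Pdha1 and Pdhb encode the subunits of its first enzyme and Dlat its acetyltransferase core. Together they summed to 176.7 CPM (166.96 to 186.8) in remaining and 77.7 CPM (71.1 to 84.7) in high WT cells, and to 234 CPM (222.4 to 245) and 190.001 CPM (180.1 to 200.3) in Mkx-/- cells. Pdhb, at chr14:8998505-9005506 (minus strand), stood at 93.5 and 40.4 CPM in remaining and high WT cells and 143.2 and 120.7 CPM in remaining and high Mkx-/- cells. Its log2 ratio was -1.21 (-1.42 to -1.003) in WT cells and -0.25 (-0.38 to -0.11) in Mkx-/- cells. Pdha1 stood at 42.3 and 23.8 CPM in remaining and high WT cells and 50.3 and 39.6 CPM in remaining and high Mkx-/- cells and Dlat at 40.9 and 13.5 CPM in remaining and high WT cells and 40.2 and 29.8 CPM in remaining and high Mkx-/- cells. Their ratios were -0.83 and -1.60 in WT cells and -0.35 and -0.43 in Mkx-/- cells. Dlat was read in 28, 12, 28 and 16 cells. All 3 genes thus passed 1.5-fold downwards in WT cells, where 53.3% of all genes did, and none did in Mkx-/- cells, where 43.2% did. From the median of all genes the distances were -0.18 for Pdha1, -0.56 for Pdhb and -0.95 for Dlat in WT cells, and 0.11, 0.21 and 0.02 in Mkx-/- cells. Without the 50 most abundant genes in the totals the WT ratio of Pdha1 was -0.32 and no longer past 1.5-fold, whereas Pdhb at -0.69 and Dlat at -1.09 were. Whether the genotypes differ in this was not tested. Bnip3, a receptor for the removal of mitochondria and a gene induced by low oxygen, stood at 8.40 and 2.42 CPM in remaining and high WT cells and 4.34 and 2.08 CPM in remaining and high Mkx-/- cells. Its log2 ratios were -1.79 (-2.69 to -0.98) and -1.06 (-2.06 to -0.12), on 120 reads in 12, 6, 8 and 4 cells. A near-identical copy took 25.5% of the reads of Bnip3 and copy. With that copy added the ratios were -1.86 (-2.64 to -1.13) and -1.77 (-2.71 to -0.91).

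The citrate cycle was lower in CPM in high cells, though as a set not clearly so relative to all genes. The 10 genes summed to 884 CPM (862 to 906) in remaining and 606 CPM (587 to 625) in high WT cells, and to 854 CPM (832 to 876) and 625 CPM (606 to 643) in Mkx-/- cells. In each genotype 4 of 10 passed 1.5-fold downwards and 0 upwards, beside 53.3% of all genes downwards in WT cells and 43.2% in Mkx-/- cells. The median ratio of the 10 was -0.44 in WT cells and -0.46 in Mkx-/- cells, at 0.21 and -0.01 from the median of all genes. Relative to that median, 4 of the 10 genes in WT cells and 5 in Mkx-/- cells were lower.

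Sdha, the flavoprotein of succinate dehydrogenase, was lower relative to all genes as well. It is found at chr13:74459702-74487728 (minus strand) and stood at 156.7 CPM (147.6 to 166.3) in the remaining WT cells, 60.3 CPM (54.5 to 66.5) in the Tnmd/Fmod-high WT cells, 112.9 CPM (105.1 to 121.1) in the remaining Mkx-/- cells and 65.04 CPM (59.3 to 71.2) in the Tnmd/Fmod-high Mkx-/- cells. The log2 ratios were -1.38 (-1.55 to -1.21) and -0.80 (-0.96 to -0.63). Its partner Sdhb, the iron-sulphur subunit, had ratios of -0.38 and -0.56. Idh3a, of the NAD-dependent isocitrate dehydrogenase, stood at 53.8 and 30.1 CPM in remaining and high WT cells and 58.4 and 34.6 CPM in remaining and high Mkx-/- cells, with ratios of -0.84 and -0.76. Fh1, fumarase, stood at 27.5 and 16.7 CPM in remaining and high WT cells and 36.4 and 13.4 CPM in remaining and high Mkx-/- cells, with ratios of -0.72 and -1.44. A score limit of 11 placed the WT ratio at -1.74, and a limit of 9 the Mkx-/- ratio at -0.23. Fh1 was read in 19, 11, 24 and 17 cells.

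Mdh2, the mitochondrial malate dehydrogenase, stood at 170.7 CPM (161.2 to 180.6) in the remaining WT cells, 101.3 CPM (93.7 to 109.3) in the Tnmd/Fmod-high WT cells, 157.1 CPM (147.9 to 166.7) in the remaining Mkx-/- cells and 129.5 CPM (121.4 to 138.1) in the Tnmd/Fmod-high Mkx-/- cells. Its ratio of -0.75 passed 1.5-fold in WT cells and that of -0.28 in Mkx-/- cells did not. For Cs, citrate synthase, the ratio of -0.97 in Mkx-/- cells passed and that of -0.13 in WT cells did not. Cs was read in 31, 21, 47 and 26 cells. Ogdh, of the oxoglutarate dehydrogenase complex, had ratios of -0.50 and -0.09, and Mdh1, the cytosolic malate dehydrogenase, of -0.32 and -0.36. The NADP-dependent isocitrate dehydrogenases were not lower in high cells. Idh1, the cytosolic enzyme, stood at 68.04 and 67.97 CPM in remaining and high WT cells and 56.5 and 57.98 CPM in remaining and high Mkx-/- cells, and Idh2, the mitochondrial one, at 28.2 and 32.9 CPM in remaining and high WT cells and 22.7 and 30.2 CPM in remaining and high Mkx-/- cells. Their ratios were 0.00 and 0.04 for Idh1 and 0.22 and 0.41 for Idh2. Idh2 was read in 18, 19, 14 and 19 cells. Idh1 held 70.7% (67.1 to 74.1) and 67.4% (63.7 to 70.97) of the reads of the pair in WT cells and 71.4% (67.4 to 75.1) and 65.8% (61.9 to 69.5) in Mkx-/- cells, and these intervals overlap between states.

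Both genes of the oxidative pentose phosphate branch were lower in high cells of both genotypes. G6pdx, glucose-6-phosphate dehydrogenase, which commits glucose 6-phosphate to this branch, is found at chrX:71654822-71674533 (minus strand). It stood at 65.5 CPM (59.6 to 71.7) in the remaining WT cells, 17.9 CPM (14.8 to 21.4) in the Tnmd/Fmod-high WT cells, 104.5 CPM (97.01 to 112.4) in the remaining Mkx-/- cells and 28.1 CPM (24.4 to 32.2) in the Tnmd/Fmod-high Mkx-/- cells. It was read in 32, 12, 47 and 13 cells. The log2 ratios were -1.87 (-2.18 to -1.58) in WT cells and -1.90 (-2.13 to -1.67) in Mkx-/- cells, or 3.67-fold and 3.72-fold lower in high cells. G6pdx overlaps Ikbkg on the other strand.

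Pgd, phosphogluconate dehydrogenase, which acts next but one in the branch, is found at chr4:148524100-148540880 (minus strand) and stood at 233 CPM (221.9 to 245) in the remaining WT cells, 73.1 CPM (66.7 to 79.9) in the Tnmd/Fmod-high WT cells, 176.6 CPM (166.8 to 186.8) in the remaining Mkx-/- cells and 82.6 CPM (76.1 to 89.5) in the Tnmd/Fmod-high Mkx-/- cells. Single remaining WT cells ran from 0 to 1627 CPM with a median of 98.002, and high WT cells from 0 to 459 CPM with a median of 7.02. In Mkx-/- cells the medians were 32.4 and 15.3 CPM. The groups overlapped cell by cell, but the summed level was 3.19-fold and 2.14-fold lower in high cells. Relative to the median of all genes the ratios of G6pdx were -1.23 and -1.44, and those of Pgd -1.02 and -0.64. Both genes stayed past 1.5-fold downwards in both genotypes under each of the 14 alternatives computed for them. The 6 proliferation markers also summed lower in high cells, at 59.3 against 182.6 CPM in WT cells and 58.95 against 169.1 CPM in Mkx-/- cells. Without the wells that held at least 2 of 5 such markers, the ratios of G6pdx were -2.02 and -1.99, and those of Pgd -1.80 and -1.09.

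The levels were then followed along the score in 6 bins. The 15 glycolytic genes held like levels in CPM, from 2091 CPM in WT cells under a score of 5 to 1908 CPM at 12 and above, with a lowest bin of 1630.3 CPM at 6 to 7. In Mkx-/- cells they ran from 1904 to 2121 CPM. With the 50 most abundant genes taken out of the reads, the same sum went from 2639 to 3834 in WT cells and from 2387 to 3527 in Mkx-/- cells. The summed glycolytic genes thus took a like share of all reads along the score and a larger share of the reads outside the 50 genes at its top. Hk2, Pkm and Aldoa, with 15007, 12243 and 7434 reads over all cells, had the most reads of the 15. Within the sum, Pfkp and Gapdh were lower and Pfkm and Pfkfb3 higher in CPM in high cells.

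The citrate cycle was lower in CPM at the top. It stood at 774 CPM under a score of 5, 1013 CPM at 6 to 7 and 616 CPM at 12 and above in WT cells, and at 885, 896 and 590.1 CPM in Mkx-/- cells. Without the 50 genes the values in these bins were 977, 1295 and 1239 in WT cells and 1109.8, 1140.0 and 981 in Mkx-/- cells, so that on this scale the top WT bin stood above the lowest bin. The pentose phosphate pair was lower at the top on both scales, at 60.6 CPM in WT cells and 94.5 CPM in Mkx-/- cells at 12 and above, against 301 and 345 CPM at 5 to 6. Between the score limit and 12 they stood at 113.4 and 141.3 CPM, below every bin under the limit. The bins of WT cells at 7 to 10 and of Mkx-/- cells under 5 held 10 and 18 cells.

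**Figure D4:**
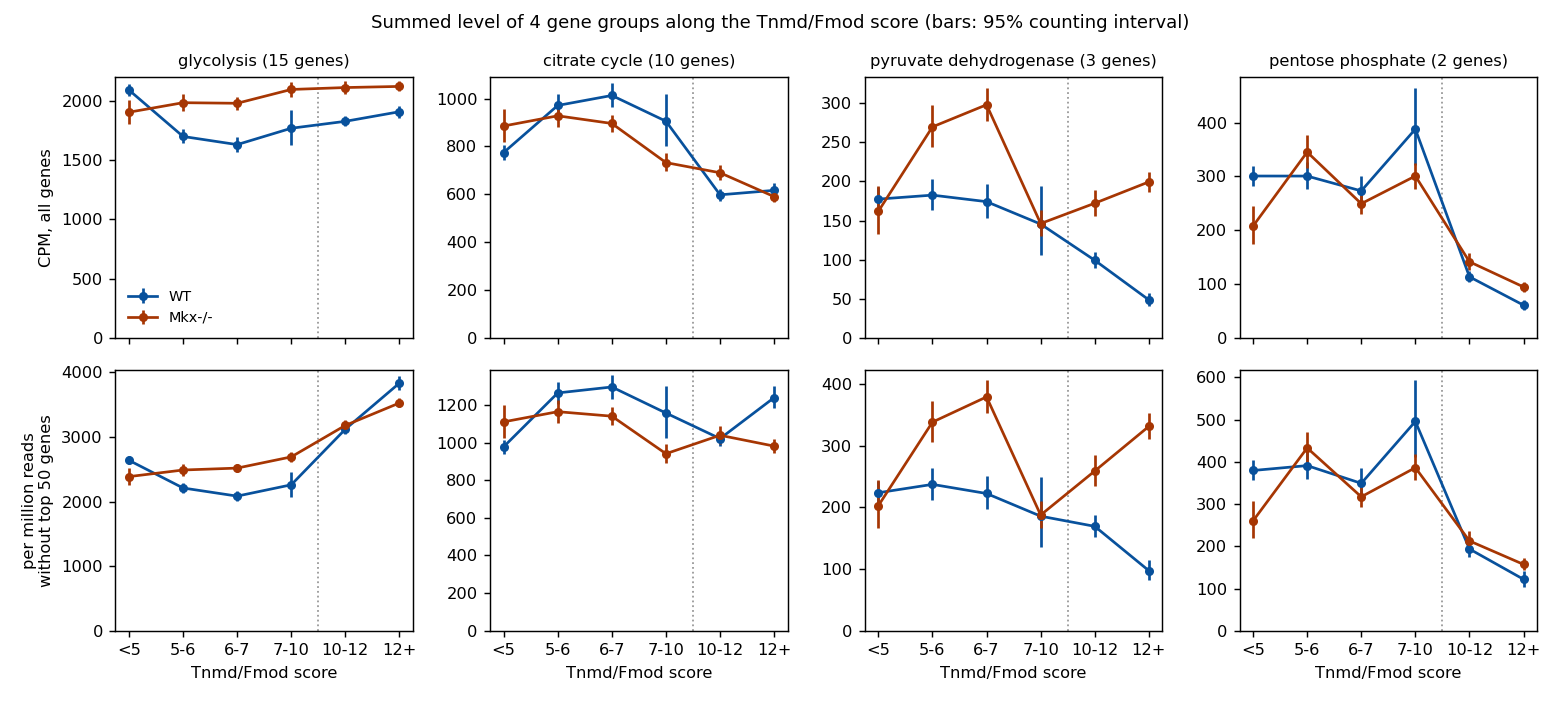
Summed level of glycolysis, citrate cycle, pyruvate dehydrogenase and pentose phosphate genes in 6 bins of the Tnmd/Fmod score, in WT (blue) and Mkx-/- cells (orange), as CPM of all reads (top row) and CPM of the reads without the 50 most abundant genes (bottom row), with exact 95% counting intervals and the score limit of 10 as a dotted line. The pentose phosphate pair steps down at the limit on both scales, whereas glycolysis is at a like level in CPM and higher at the top without the 50 genes.

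The genotypes were compared next, within each state. The score was not equal between genotypes within a state, and 36 of 78 high WT cells but 58 of 84 high Mkx-/- cells scored 12 or more. The part of the score in the genotype differences was not tested. In high cells 7 of the 34 genes were 1.5-fold or more higher and 1 lower in Mkx-/- than in WT cells, where 29.9% of all genes were higher and 18.3% lower. In the remaining cells 6 were higher and 1 lower, against 18.6% and 17.2% of all genes. With the 50 most abundant genes left out of the totals, the counts were 4 higher and 3 lower in high and 6 higher and 2 lower in remaining cells. The median of all genes was then 0.007 and 0.003, and the shares of all genes above do not apply to these counts. The group's median log2 ratio was 0.11 in high and 0.12 in remaining cells, beside 0.19 and 0.01 for all genes. The 7 of 34 genes that were higher in high cells lay below the share of all genes, and the 6 of 34 in remaining cells lay near it. Most of the enzymes of glycolysis, Hk2, Aldoa, Gapdh, Pgk1, Pgam1, Eno1, Pkm, Gpi1 and Tpi1 among them, and all 10 citrate cycle genes but Cs stayed within 1.5-fold in both states.

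**Figure D5:**
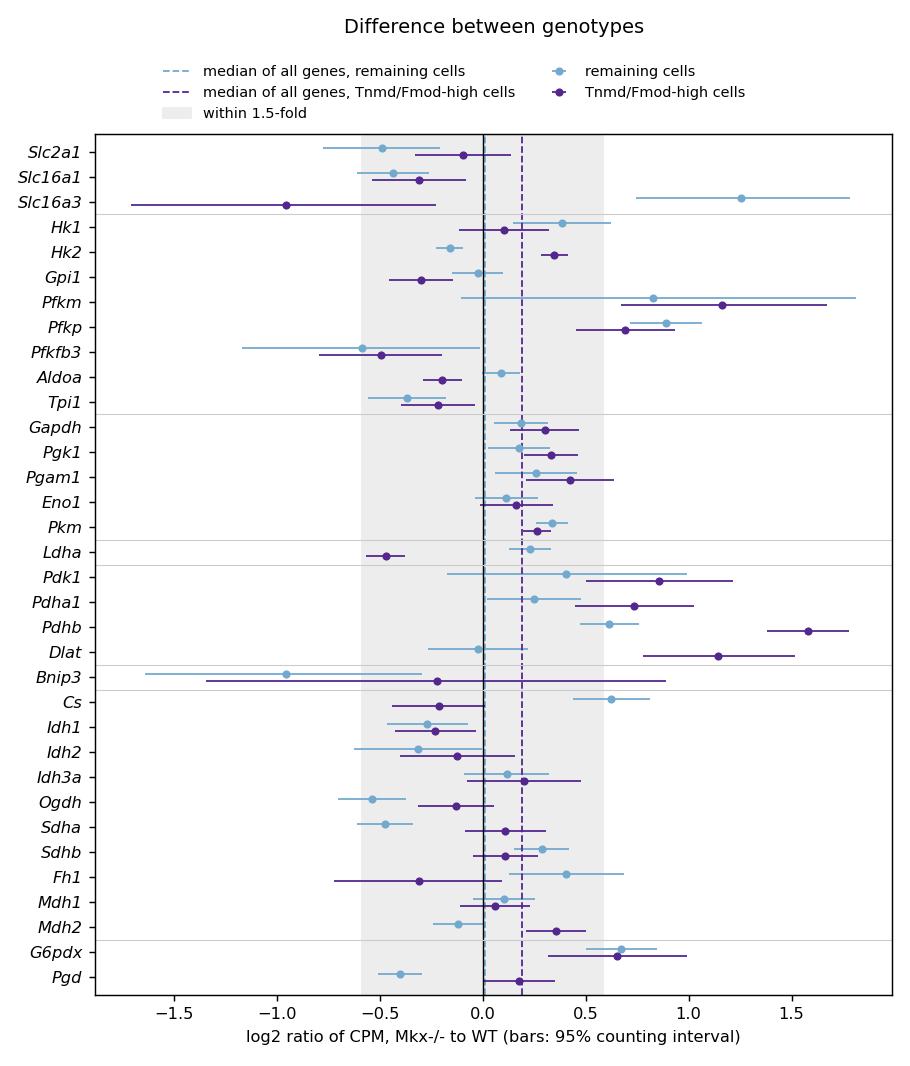
Log2 ratio of CPM in Mkx-/- to WT cells for each gene, in remaining (light blue) and Tnmd/Fmod-high cells (purple), with exact 95% counting intervals, the 1.5-fold zone shaded and the median of all genes as dashed lines. Pfkm, Pfkp, Pdhb and G6pdx lie to the right of the zone in both states, and the 3 pyruvate dehydrogenase subunits lie to the right in high cells.

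The genes of the pyruvate dehydrogenase step all passed 1.5-fold upwards in high Mkx-/- cells (4 of 4), where 29.9% of all genes did and the median of all genes was 0.19. Pdhb stood at 40.4 CPM (35.7 to 45.6) in high WT and 120.7 CPM (112.8 to 128.95) in high Mkx-/- cells, 2.99-fold higher, with a log2 ratio of 1.58 (1.38 to 1.78). A read of Pdhb was found in 25.6% of the high WT and 53.6% of the high Mkx-/- cells. After thinning to 28000 reads these shares were 22.1% and 45.8%. Single cells reached 377 CPM in WT cells and 790.2 CPM in Mkx-/- cells.

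Dlat was also higher in high Mkx-/- cells, with a log2 ratio of 1.14 (0.78 to 1.52), and so was Pdha1, with 0.74 (0.45 to 1.03). Dlat was read in 12 high WT and 16 high Mkx-/- cells, and 1 cell held 24.7% of its reads in high WT cells. Without the 50 most abundant genes in the totals the ratios were 1.39 for Pdhb, 0.96 for Dlat and 0.55 for Pdha1, the last now within 1.5-fold. In the remaining cells Pdhb was also higher, by 0.61 (0.47 to 0.76), whereas Pdha1 at 0.25 and Dlat at -0.02 stayed within 1.5-fold. Pdk1, the inhibitor of the complex, was likewise higher in high Mkx-/- cells, by 0.86 (0.50 to 1.22), on the same side as the subunits it acts on. That value rests on 13 WT and 10 Mkx-/- cells with a read, 1 of which held 42.9% of the Mkx-/- reads. In cells with under 5000 detected genes its ratio turned to -0.48, and without the leading cells it was 0.49. Along the score the 3 subunits summed to 48.5 CPM in WT cells and 199.4 CPM in Mkx-/- cells at 12 and above, and to 99.2 and 172.1 CPM at 10 to 12.

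Pfkp was higher in Mkx-/- cells of both states, by 0.69 (0.45 to 0.93) in high and 0.89 (0.71 to 1.06) in remaining cells. It was read in 47.9% of remaining Mkx-/- cells against 33.6% of remaining WT cells, and in 42.9% against 32.1% of high cells. Under scalings that set the median of all genes near 0, the ratio in high cells was 0.51 to 0.53 and no longer past 1.5-fold. Pfkm was higher by 1.16 (0.67 to 1.67) in high and by 0.83 (-0.11 to 1.81) in remaining cells, the latter on 4 cells per genotype and with an interval that spans 0. Without wells with proliferation markers the value in remaining cells was 0.06.

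G6pdx was higher in Mkx-/- cells by 0.65 (0.32 to 0.99) in high and 0.67 (0.50 to 0.85) in remaining cells. It was read in 33.6% of remaining Mkx-/- against 21.5% of remaining WT cells, and in 15.5% against 15.4% of high cells. The value in high cells moved with the processing, from 0.38 with cells chosen by other tenocyte genes to 1.05 in cells with 2500 or more genes. Pgd, of the same branch, was at 0.18 (0.00 to 0.35) in high and -0.40 (-0.51 to -0.29) in remaining cells.

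The other genes differed between the states or stayed within 1.5-fold. Cs was higher in remaining Mkx-/- cells, by 0.63 (0.44 to 0.81), and stood at -0.21 in high cells. Pfkfb3 stood lower in Mkx-/- cells in both states, at -0.49 (-0.79 to -0.20) in high and -0.58 (-1.17 to -0.01) in remaining cells, the latter just under 1.5-fold. The value in remaining cells rests on 8 WT and 10 Mkx-/- cells with a read and turned to 0.41 with every cell given equal weight. Bnip3 was lower in remaining Mkx-/- cells, at -0.95 (-1.64 to -0.30), on 12 and 8 cells with a read. With its near-identical copy added the value was -0.63 (-1.18 to -0.09). Slc16a3 stood higher in remaining Mkx-/- cells, at 1.25 (0.74 to 1.78), and lower in high ones, at -0.95 (-1.71 to -0.23), with 5 to 7 cells per group. Ldha stood at -0.47 (-0.57 to -0.38) in high cells, within 1.5-fold.

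Genes of the same pathways that were not on the list were counted as well, from lists drawn up by pathway. Of 25 other pyruvate dehydrogenase and citrate cycle genes with 100 or more reads, 14 were past 1.5-fold lower and 1 higher in high WT cells, and 15 and 1 in high Mkx-/- cells. The shares of all genes that were lower were 53.3% and 43.2%, so the count in WT cells lay near that background. Their median log2 ratios were -0.91 and -0.70, -0.26 and -0.25 from the median of all genes. Glud1, glutamate dehydrogenase, was lower in high cells and stood at 622 and 199.4 CPM in remaining and high WT cells and 545 and 245 CPM in remaining and high Mkx-/- cells. Pdhx, the component that holds dihydrolipoamide dehydrogenase in the pyruvate dehydrogenase complex, was lower in high cells with log2 ratios of -2.46 and -2.02, and higher in Mkx-/- cells, by 1.61 in high and 1.17 in remaining cells.

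Another kinase of the complex, Pdk4, was lower in high cells, unlike Pdk1. It had log2 ratios of -3.56 (-4.92 to -2.46) in WT cells and -5.03 (-7.34 to -3.44) in Mkx-/- cells, the latter on 3 reads in high cells, and was read in 10, 1, 13 and 3 cells. Of the 9 other glycolytic genes, 2 were higher and 5 lower in high WT cells, and 2 and 3 in high Mkx-/- cells, beside 53.3% and 43.2% of all genes lower. Eno3, the muscle enolase, was the one higher in both, by 1.002 and 1.69, and was read in 7, 12, 10 and 19 cells. Markers of skeletal muscle were near 0 in the same cells, at 2.12 CPM in high WT and 0.138 CPM in high Mkx-/- cells over 6 genes. Of the 6 other pentose phosphate genes, Tkt, transketolase, was lower in both (-2.64 and -1.43), and H6pd, the hexose-6-phosphate dehydrogenase of the endoplasmic reticulum, was higher (0.78 and 2.31), on 4, 5, 7 and 13 cells.

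Several of the listed genes are textbook targets of hypoxia-inducible factors, so 10 further genes induced by low oxygen were set beside them. In high WT cells 2 were higher and 5 lower, and in high Mkx-/- cells 3 and 6. Of all genes 12.2% were higher and 53.3% lower in WT cells, and 12.5% and 43.2% in Mkx-/- cells, and the same shares apply to the oxygen-sensing factors named below. Car9, a carbonic anhydrase at the cell surface, stood at 1.99 and 115.1 CPM in remaining and high WT cells and 1.01 and 31.7 CPM in remaining and high Mkx-/- cells. P4ha1, a prolyl hydroxylase needed for collagen synthesis, stood at 104.1 and 589.8 CPM in remaining and high WT cells and 125.9 and 479.9 CPM in remaining and high Mkx-/- cells. On the other side, P4ha2, another such hydroxylase, stood at 127.3 and 28.3 CPM in remaining and high WT cells and 164.3 and 29.9 CPM in remaining and high Mkx-/- cells, and Vegfa, an angiogenic factor, at 110.5 and 46.8 CPM in remaining and high WT cells and 85.6 and 49.8 CPM in remaining and high Mkx-/- cells. Hif1a, the subunit of hypoxia-inducible factor that is stable only at low oxygen, had log2 ratios of -0.19 and 0.34 between states. Genes induced by low oxygen thus stood on both sides. Among 7 oxygen-sensing factors, 2 were past 1.5-fold higher and 1 lower in high WT cells, and 3 and 1 in high Mkx-/- cells. Relative to the median of all genes, 7 of these factors stood higher and 0 lower in WT cells, and 6 and 1 in Mkx-/- cells. Across genotypes in high cells, 8 of the 25 pyruvate dehydrogenase and citrate cycle genes were higher and 4 lower in Mkx-/- cells, near the 29.9% and 18.3% of all genes, with a median of 0.39 beside 0.19 for all genes.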

How the data were processed

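Reads were counted per gene in each of 451 cells, 227 WT and 224 Mkx-/-. The authors deposited raw counts, made from reads cleaned with AfterQC and NGSQCToolkit (3′ ends trimmed below a PHRED score of 20), aligned without splicing by bowtie2 and counted by featureCounts. The study's methods name mm9 and the submitters' processing notes mm10. Tool versions, strand and the treatment of reads that match several places are not given in the sources used here. Such reads bear most on Gapdh, Pgk1 and Eno1. They bear also on Bnip3 and Ldhb, whose copies took 25.5% and 18.75% of the reads of gene and copy. Strand bears on genes that overlap an antisense gene. Beside Pfkm, Pfkp, Slc16a3 and G6pdx these are Slc2a1, Hk1, Hk2, Gpi1, Tpi1, Pdha1, Sdha, Fh1 and Mdh1. The counts are of reads, not molecules, so intervals cover counting error only.

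Cells were grouped by the genotype label and by state (mean log2(CPM + 1) of Tnmd and Fmod of 10 or more). Counts were summed over the cells of a group and divided by the summed totals to give CPM. Genes with under 100 reads over all cells were left out, and shares over all genes also left out genes with 3 or fewer reads in both groups. Any gene, listed or not, with no read in 1 of the groups was set to a floor of 3 reads there, which makes its ratio a bound. Intervals at 95% were exact Poisson for a level, exact conditional binomial for a ratio and Clopper-Pearson for a share. With 1 sample per genotype no test was made, and a gene was counted as higher or lower past 1.5-fold. Each cell is its own library, with 13076 to 335813 reads in WT and 14226 to 294791 in Mkx-/- cells. No read was counted for 37 mitochondrial gene symbols. Near-identical copies were found with blastn 2.17.0 on NCBIM37 with the GENCODE M1 transcripts, from which gene positions were taken, and promoter windows came from RefSeq (GRCm38.p6). Code ran in Python 3.11.15 with numpy 2.4.6, pandas 2.3.3, scipy 1.17.1 and matplotlib 3.10.9, and in R 4.3.3 with edgeR 4.0.16 for TMM factors, and was tested on simulated data. Alternatives changed the scaling, the weight of cells, the depth, the filters, the limit and genes of the state, and the treatment of copies. The members and lists were chosen with earlier results of these data known. Genes described in full were those past 1.5-fold in one direction in both state comparisons or in either genotype comparison, the leading gene of each role by reads, and the isozymes. Other pathway genes were named only if past 1.5-fold in a comparison.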

Additional observations from a re-analysis of the deposited data

Results flagged for a closer look

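Hk2, Ldha and Aldoa had state differences of opposite sign in the genotypes, with counting intervals that leave out 0 on both sides. The log2 ratio of Tnmd/Fmod-high to remaining cells was -0.21 (-0.28 to -0.15) in WT cells and 0.29 (0.23 to 0.36) in Mkx-/- cells for Hk2, 0.59 (0.49 to 0.69) and -0.12 (-0.22 to -0.01) for Ldha, and 0.11 (0.01 to 0.20) and -0.18 (-0.27 to -0.09) for Aldoa. The difference between the genotypes was not tested, since each genotype is 1 sample. Such opposite signs were found for 3 of the 34 genes (8.82%) and for 1083 of 10963 genes in all (9.88%). The sign depended on the scaling. Without the 50 most abundant genes in the totals the ratios were 0.30 and 0.63 for Hk2, 1.10 and 0.22 for Ldha, and 0.62 and 0.16 for Aldoa, positive in both genotypes.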

How the results depend on the processing

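Over 15 alternatives, 2 of them added after the data were seen (leaving out wells with markers of another cell type, or with proliferation markers), 1625 of 2056 gene values moved by less than their counting interval, 424 moved by more and 7 that were past 1.5-fold changed sign. The median state ratio of the 34 genes turned positive under 3 scalings, at 0.17 (without the 50 most abundant genes), 0.25 (TMM) and 0.27 (median-of-ratios) in WT and 0.025, 0.12 and 0.13 in Mkx-/- cells. These scalings raise every state ratio by the same amount, and the distance from the median of all genes stays at 0.30 and 0.14. Single genes changed sign on few reads: the state ratio of Pfkl on thinning to 28000 reads (-0.085 in WT, -1.43 in Mkx-/- cells) and with the state set by 5 other tenocyte genes (-0.38 in Mkx-/- cells), and Ldhb at a score limit of 11 (-2.46 for state in WT, -1.45 for genotype in remaining cells). All WT reads of Ldhb were in 1 cell, which that limit moves to the remaining cells, so the first of these values and both values at a limit of 10 are bounds set by a floor of 3 reads and say nothing of a direction. Genotype ratios in high cells did so for Slc16a3 in cells with 2500 or more genes (0.47) and Pdk1 in cells with under 5000 genes (-0.48). Thinning left out 41 cells. No paired analysis was possible because the labels number cells and name no animal or chip. Replicates could not be left out in turn, since each genotype is 1 sample, and genes read in under 20 cells of a group rest on few wells.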
